A study of Mus musculus with 9 samples.

Results

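Lysosomal hydrolases, cathepsins and membrane proteins were followed at the transcript level in mouse peritoneal macrophages, phagocytic cells that live in the abdominal cavity, after treatment with LPS. The set held 36 genes, chosen by gene symbol and not by a threshold on their values, out of 55335 gene entries in the expression table. It had 14 genes of cathepsins and other peptidases, 10 of glycosidases together with the sulfatase gene Ids, 6 of lipid hydrolases and soluble cofactors, and 6 of the lysosomal membrane. Each symbol occurred once. Bulk RNA-seq was done on 9 libraries in 3 groups of 3. All cells had 1 h in culture and then 4 h with lipopolysaccharide (LPS), the bacterial cell wall component, at 1 µg/mL. The LPS group had nothing else, the LPS+EtOH group also had 5% ethanol, and the LPS+CPZ group also had 100 µM of a compound labelled CPZ that the labels do not spell out. RNA of 3 distinct samples was pooled for each library, and strain, sex and age are not given in the sources used here. The labels speak of biological replicates without naming the animals behind each pool, so p-values measure the spread between pools, which may be technical. LPS-free cells, ethanol or CPZ alone and a solvent control were not analysed here, so every comparison lies between LPS-treated groups. The series' title names alcohol, colitis and the TRPV1 channel.

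Lysosomes are acidic compartments in which macrophages break down engulfed microbes, dead cells and their own worn parts. Cathepsins cut proteins, glycosidases strip sugars from glycoproteins and glycolipids, and lipid hydrolases with their saposin-type cofactors take apart membrane lipids. Membrane proteins such as LAMP1 line the compartment, and others carry cholesterol or amino acids out of it. Many of these genes have been described as targets of the transcription factors TFEB and TFE3, which bind the E-box CACGTG within a longer element.

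Values are FPKM, fragments scaled for transcript length and for the mapped fragments of the library, so they are relative to the rest of each library. Total FPKM was 302126 to 363356 with LPS alone, 337100.3 to 361759 with ethanol and 321821 to 358229.6 with CPZ. The table gives no fragment counts, and its low values did not resolve into whole fragments, so the depth behind each value is unknown. Adult globin genes took 11.5 to 29.4% of all FPKM in LPS and at most 0.221% in the other groups. The macrophage gene Adgre1, which encodes F4/80, was detected in all groups (141 ± 8.01 FPKM with LPS alone, 89 ± 9.48 with ethanol and 88.5 ± 14 with CPZ). The 9 macrophage markers summed to 1605 to 2086 FPKM with LPS alone, 2781 to 2923 with ethanol and 1010 to 1176 with CPZ. Of 8 tested, 3 rose and 4 fell in each of the treated groups. Of all tested genes 19.0% rose and 64.6% fell with ethanol and 20.7% rose and 48.4% fell with CPZ. Gata6, the defining factor of large peritoneal macrophages, was near 0 throughout (0.324 ± 0.116 FPKM with LPS alone, 0.0338 ± 0.0268 with ethanol and 0.308 ± 0.141 with CPZ). The whole list of 13 large peritoneal macrophage markers summed to 685 to 1027 FPKM with LPS alone, 379 to 439 with ethanol and 368 to 478 with CPZ, and 9 of 11 tested fell with ethanol and 10 with CPZ. Of these 11, 2 passed the filter on low values through 1 group only, so their direction was partly set by it. The 11 markers of small peritoneal macrophages and dendritic cells summed to 536 to 891, 44.7 to 72 and 137 to 193 FPKM in that order. Of 16 neutrophil markers 14 could be tested, and their summed level was 4576 to 6389.7 FPKM with LPS alone, 47474 to 52312 with ethanol and 7641 to 8428 with CPZ. The primary granule genes Elane and Mpo had group means of at most 0.0409 FPKM. The 12 B cell markers summed to 1540.1 to 2198, 148 to 203 and 1223 to 1441 FPKM in the same order of groups, and 15 T and NK cell markers to 65.5 to 87.6, 1.4 to 2.85 and 14 to 26.2 FPKM. Cathepsin and hydrolase genes are expressed in these cells too, the part of these differences in the results was not tested, and in bulk samples fewer cells of a type and less RNA per cell cannot be told apart.

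Changes are given on the log2(FPKM + 1) scale with limma, with ± for the SD of an FPKM mean (n = 3) and for the standard error of a change, and a gene is said to rise or fall where its adjusted p was under 0.05 over all 11721 tested genes. The median change of all tested genes was -0.82 in LPS+EtOH against LPS, -0.33 in LPS+CPZ against LPS and 0.55 in LPS+CPZ against LPS+EtOH. After median-ratio scaling, which sets the typical gene equal between libraries, these medians were -0.00958, -0.056 and 0.0398. Most changes are therefore also given after that scaling, which the words after scaling stand for. Of the 36 genes 35 passed the filter on low values. Ctsk, the gene of cathepsin K, did not, at 0.244 ± 0.0493 FPKM with LPS alone, 0.349 ± 0.0996 with ethanol and 0.679 ± 0.366 with CPZ (mean ± SD, n = 3). Manba, the beta-mannosidase gene, passed only through the LPS libraries, where it was highest, so its fall was partly set by the filter. The first 2 comparisons share the LPS libraries and are not independent of each other.

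Promoters were searched for the E-box CACGTG, which reads the same on both strands, in the 250 bases before and 50 after each RefSeq start site (GRCm38.p6). Of 32 genes of the set with a promoter entry, 8 (25%) held it, against 12.5% of 7781 tested genes with an entry and 7.15% of all 32851 promoters. The longer form TCACGTG, searched on both strands and overlapping the first, was in 7 of 32 (21.9%), against 7.52% of the tested genes. A still longer form, which extends CACGTG by further fixed bases on both sides, was in 0 of 32, against 0.951% of the tested genes. At so low a share, 0 of 32 cannot tell the set from the tested genes. Sites of 5 genes are shown, chosen by their calls as deposited. Ctsd, Gla and Lamp1 rose with ethanol and with CPZ, Gaa moved in opposite directions and Glb1 fell in both. The fall of Gaa with ethanol did not pass after median-ratio or quantile scaling. Of 2 Ctsd sites, at 98 and 245 bases upstream, the nearer is shown. Capitals mark CACGTG, and each name gives the distance of its first base from the start site.
Ctsd, 98 bases upstream, chr7:142387908-142387937, minus strand: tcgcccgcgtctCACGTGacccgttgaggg
Gla, 227 bases upstream, chrX:134601215-134601244, minus strand: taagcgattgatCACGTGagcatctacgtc
Gla, 194 bases upstream, chrX:134601182-134601211, minus strand: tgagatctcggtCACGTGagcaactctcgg
Gaa, 140 bases upstream, chr11:119267811-119267840, plus strand: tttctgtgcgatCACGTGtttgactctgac
Glb1, 48 bases upstream, chr9:114401018-114401047, plus strand: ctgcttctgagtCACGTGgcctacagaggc
Lamp1, 4 sites at 61, 45, 28 and 15 bases upstream, chr8:13159086-13159160, plus strand: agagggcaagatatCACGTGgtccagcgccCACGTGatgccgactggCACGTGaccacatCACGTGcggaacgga
The other holders were Ctsa, Ctsl and Lgmn, and the start sites of Ctsa and Lgmn did not match a GENCODE M21 transcript start. Both Gla sites lie in annotated exons of another gene, Hnrnph2. Of the 172 bases that span the 2 Ctsd sites, 133 lie in annotated Ctsd exons. By call, 3 of 12 genes with an entry that rose in LPS+EtOH held the E-box and 4 of 15 that fell. In LPS+CPZ against LPS it was 6 of 17 that rose and 1 of 13 that fell. In LPS+CPZ against LPS+EtOH it was 8 of 24 that were higher and 0 of 2 that were lower. Of genes not called, 1 of 4, 1 of 1 and 0 of 5 held it, in the same order of comparisons. The E-box share of all tested genes by call was not counted, so no link between E-box and direction is drawn from these counts. A match is a description of the letters, not evidence of binding, and other start sites of these genes were not searched.

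The summed level of the 36 genes differed between the groups. It was 1511 to 1859 FPKM with LPS alone, 3906 to 4269 with ethanol and 5705 to 6737 with CPZ, with no overlap. As a share of all FPKM this was 0.416 to 0.605%, 1.09 to 1.21% and 1.69 to 2.09%. LPS replicate 3, with the highest globin share, had the lowest sum. Few genes carried the total. With LPS alone the highest mean belonged to Psap, the precursor of the saposins, followed by the cathepsin genes Ctsd, Ctsz and Ctss, and the ranges of Psap, Ctsd and Ctsz overlapped. Ctsb came next and lay below all of these. In both treated groups Ctsd was highest, above all other members in every library.

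**Figure D1:**
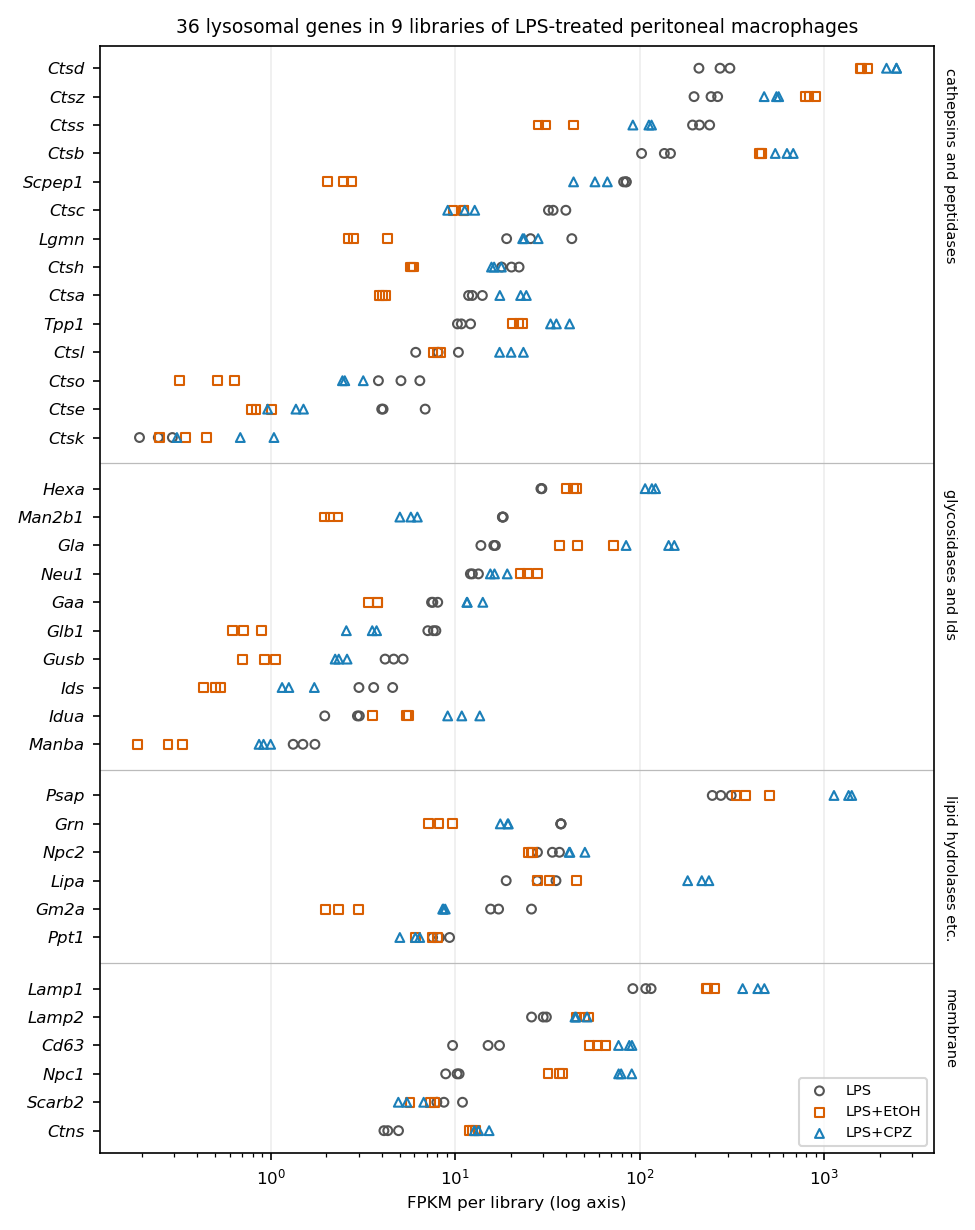
FPKM of the 36 genes in each of the 9 libraries on a log axis, 1 symbol per library, in 4 classes ordered by the LPS mean. Ctsd, Ctsb and Lamp1 lie to the right of LPS in both treated groups, Ctss and Man2b1 to the left, and Scpep1 spans the widest range.

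Within the set the make-up changed, which does not depend on scaling between libraries. Ctsd took 15.1 ± 1.56% of the summed FPKM with LPS alone, 40.4 ± 0.615% with ethanol and 37.3 ± 0.81% with CPZ (SD, n = 3). Ctss, which encodes cathepsin S of the class II antigen pathway, went from 12.4 ± 0.942% to 0.853 ± 0.231% and 1.69 ± 0.305%. Ctsz stood at 13.6 ± 0.808%, 20.9 ± 1.84% and 8.34 ± 0.169%, so its share was highest with ethanol. Psap, at 16.1 ± 0.926%, 9.98 ± 1.74% and 20.4 ± 0.564%, had its lowest share with ethanol. By class, the membrane genes held a similar share in all groups (9.91 ± 0.274%, 9.98 ± 0.0951% and 10.3 ± 0.368%). The glycosidase share was 6.02 ± 0.688%, 3.28 ± 0.333% and 4.65 ± 0.35%. These shares are descriptions, since with 3 libraries against 3 an exact two-sided permutation test cannot go below 0.1.

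**Figure D2:**
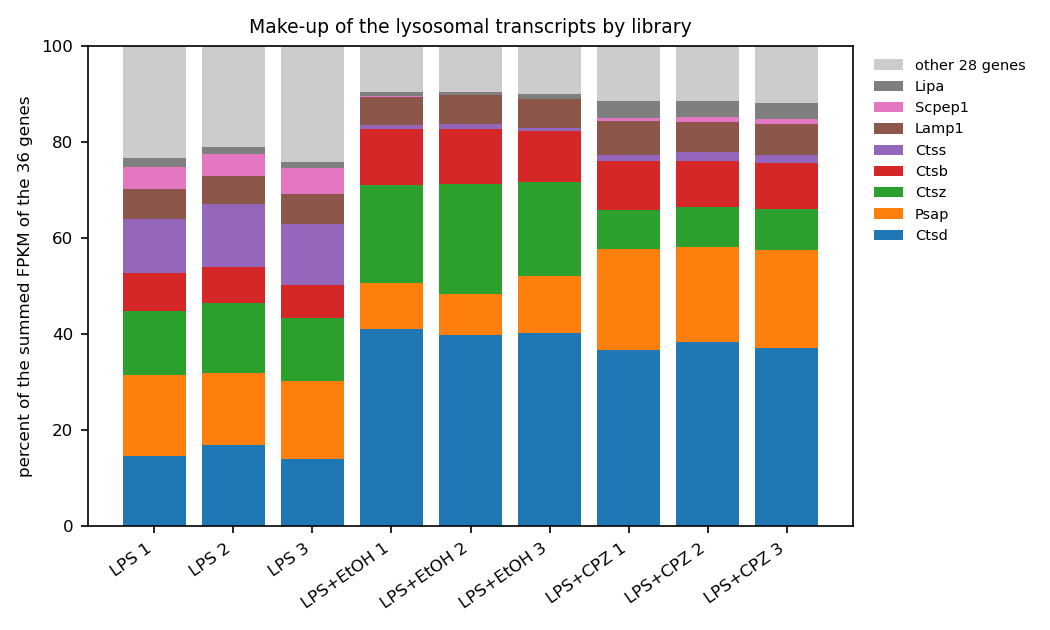
Percent of the summed FPKM of the 36 genes taken by each of 8 genes and by the other 28, for every library, stacked to 100. The Ctsd segment is larger in all 6 treated libraries than in the 3 LPS libraries, and the Ctss and Scpep1 segments are smaller.

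The comparison of LPS+EtOH with LPS asked how ethanol changes the transcripts of LPS-treated cells. Ctsd, Ctsb and Ctsz (cathepsins D, B and Z), 5 of 6 membrane genes and Gla (alpha-galactosidase A) rose with ethanol, with Ctsd 6.18-fold and Npc1 3.6-fold higher by group means. Scpep1, Lgmn, Ctss, Glb1 (beta-galactosidase), Man2b1 (alpha-mannosidase) and Gm2a (GM2 activator) were among those that fell, with Scpep1 34.5-fold, Lgmn 9.01-fold and Man2b1 8.54-fold lower. In all, 14 of 35 tested genes rose and 17 fell. Of all tested genes 19.0% rose and 64.6% fell. After median-ratio scaling 19 rose and 15 fell, against 39.9% and 40.1% of all genes. The median change was -0.33 as deposited and 0.82 after scaling, beside the medians of all genes given above. Groups did not overlap for 32 of 35 tested genes, against 84.8% of all tested genes. Under all 5 scalings run (as deposited, TPM, median-ratio, quantile and without globin genes) 11 genes were called higher and 14 lower. How many of all tested genes were called under all 5 was not counted, here or below. The smallest all-gene counts under a single scaling were 1617 of 11717 higher (without globin genes) and 4633 of 11721 lower (quantile). The 11 were Ctsb, Ctsd, Ctsz, Tpp1, Gla, Neu1, Npc1, Lamp1, Lamp2, Cd63 and Ctns. The 14 were Ctsa, Ctsc, Ctse, Ctsh, Ctso, Ctss, Lgmn, Scpep1, Glb1, Gusb, Ids, Man2b1, Gm2a and Grn. Neutrophil markers were higher in the same libraries, 12 of 14 tested, and B cell markers lower, 12 of 12. Of these B cell markers 1 passed the filter on low values through 1 group only, so its direction, here and below, was partly set by it.

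The same question was put to CPZ, by LPS+CPZ against LPS. Ctsd (cathepsin D) was 9.0-fold, Npc1 (cholesterol export) 8.34-fold and Psap (saposin precursor) 4.66-fold higher by group means, and each of them rose. Man2b1 fell to a mean 3.2-fold lower and Ctsc to one 3.19-fold lower. In all, 19 of 35 tested genes rose and 14 fell, against 20.7% and 48.4% of all tested genes. After median-ratio scaling 19 rose and 10 fell, against 28.6% and 32.5%. The median change of the tested genes of the set was 0.44, and 0.78 after scaling. Groups did not overlap for 34 of 35 genes, against 72.9% of all. Under all 5 scalings 16 genes were called higher and 9 lower. Among all tested genes the smallest counts under a single scaling were 1677 of 11717 higher (without globin genes) and 3806 of 11721 lower (median-ratio). Among the 16 were Ctsd, Lipa, Npc1, Gla, Cd63, Ctsb, Psap, Lamp1 and Hexa, and the 9 were Ctsc, Ctse, Ctss, Glb1, Gusb, Ids, Man2b1, Gm2a and Grn. Ctsd ranked 65th, Lipa 89th, Npc1 92nd and Gla 95th from the top by change among the 11721 tested genes. Of the neutrophil markers 4 rose and 5 fell, and 11 of 12 B cell markers fell.

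The direct comparison of LPS+CPZ with LPS+EtOH showed where the treatments differed. Scpep1 was 23.1-fold, Lgmn 7.73-fold, Lipa 5.99-fold and Ctsa 5.31-fold higher with CPZ by group means, and Ctsz and Neu1 were higher with ethanol. As deposited, 27 of 35 tested genes were higher with CPZ and 2 were lower, beside 61.4% and 15.2% of all tested genes. After median-ratio scaling 17 were higher and 7 lower, beside 33.9% and 33.0%. The median change was 1.06, and 0.36 after scaling. Groups did not overlap for 29 of 35, against 79.0% of all. Called higher with CPZ under all 5 scalings were 14 genes, namely Ctsa, Ctsh, Ctso, Ctss, Lgmn, Scpep1, Gaa, Glb1, Hexa, Man2b1, Lipa, Psap, Gm2a and Npc1. The sialidase gene Neu1 alone was lower under all 5. Among all 11721 tested genes the smallest counts under a single scaling were 3844 higher (quantile) and 1645 lower (TPM). After median-ratio scaling the 7 lower genes were Neu1 (-1.33), Ctsz (-1.50), Ctsc (-0.73), Ppt1 (-1.0), Lamp2 (-0.88), Scarb2 (-0.97) and Ctns (-0.64), of which Neu1 and Ctsz were also called as deposited. Scpep1 ranked 7th from the top of all tested genes. In these libraries 12 of 14 neutrophil markers were lower with CPZ and 10 of 12 B cell markers higher.

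**Figure D3:**
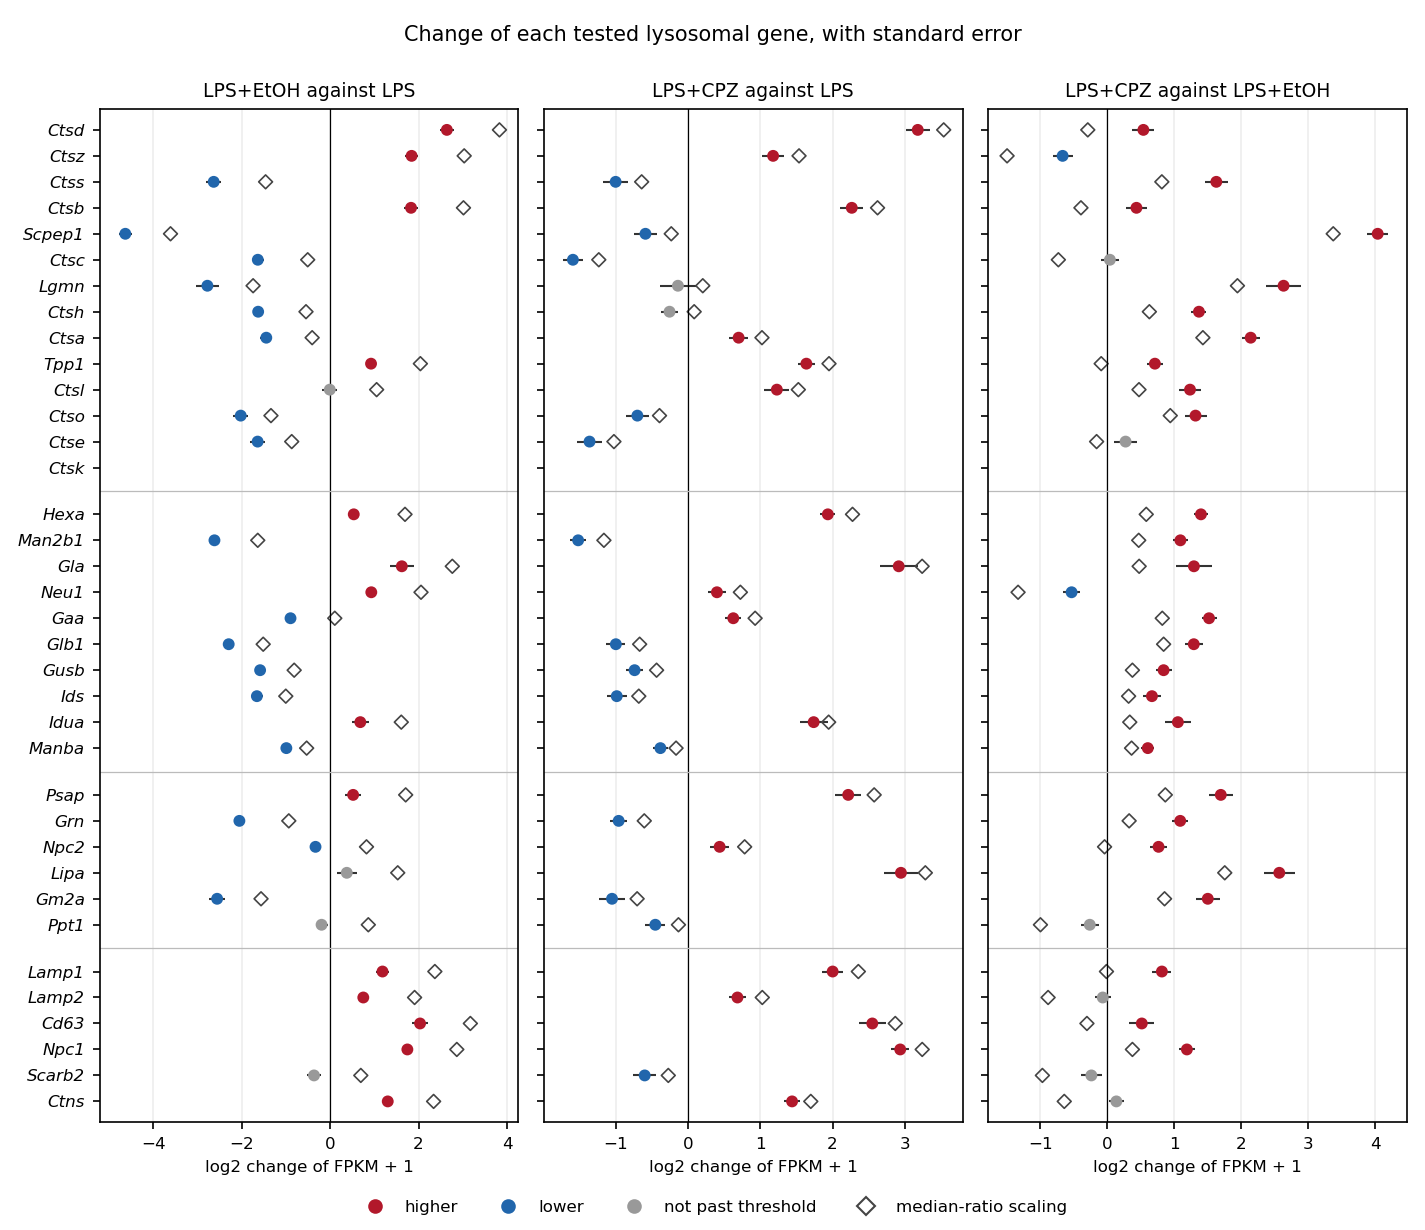
Log2 change of FPKM + 1 for each tested gene in the 3 comparisons, with bars of 1 standard error. Filled circles are as deposited (red higher, blue lower, grey not past the threshold) and open diamonds are after median-ratio scaling. The diamonds lie to the right of the circles against LPS and to the left in LPS+CPZ against LPS+EtOH, and the membrane genes other than Scarb2 lie above 0 in the first 2 panels.

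Of 13 tested cathepsin and peptidase genes 4 rose and 8 fell in LPS+EtOH, beside 19.0% and 64.6% of all tested genes. In LPS+CPZ 6 rose and 5 fell, beside 20.7% and 48.4%. Ctsd, the aspartic protease cathepsin D, was at 273, 309 and 209.7 FPKM with LPS alone, 1602, 1569 and 1719.7 with ethanol and 2469, 2180.1 and 2467 with CPZ. All 6 treated libraries lay above the 3 LPS libraries, 6.18-fold with ethanol and 9.0-fold with CPZ by group means (log2 change 2.64 ± 0.16 SE, limma adjusted p = 1.70e-07, and 3.18 ± 0.16, adjusted p = 1.58e-07). After median-ratio scaling the changes were 3.83 and 3.54. With CPZ it was higher than with ethanol as deposited (0.54), and -0.29 after that scaling, where it did not pass the test. Ctsb, the cysteine protease cathepsin B, followed the same order at 147, 136 and 102 FPKM with LPS alone, 458, 449 and 457 with ethanol and 680.4, 544 and 629 with CPZ. No treated library overlapped LPS, with changes of 1.83 ± 0.16 and 2.27 ± 0.16 (3.02 and 2.62 after median-ratio scaling). Its difference between CPZ and ethanol (0.44) lost its call on leaving out any single LPS+EtOH library (0.43 to 0.44), LPS+CPZ replicate 1 (0.36) or LPS+CPZ replicate 3 (0.42), and under TPM scaling it was 0.49 without passing. Under median-ratio scaling it was -0.39, also without passing.

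Ctsz, the carboxypeptidase cathepsin Z, rose in both but more with ethanol: 235 ± 34.6 FPKM with LPS alone, 842 ± 56.7 with ethanol and 531 ± 50.4 with CPZ. It was lower with CPZ than with ethanol (-0.67 ± 0.15, limma adjusted p = 0.00202, and -1.50 after median-ratio scaling), but under quantile scaling the difference was -0.23 and did not pass. Tpp1, the tripeptidyl peptidase gene lost in a childhood neuronal lipofuscinosis, rose as well, at 11.1 ± 0.945 FPKM with LPS alone, 21.9 ± 1.43 with ethanol and 36.7 ± 4.55 with CPZ, with changes of 0.93 and 1.64 (2.04 and 1.95 after scaling). Ctsl, the gene of cathepsin L, stood at 8.2 ± 2.15 FPKM with LPS alone, 7.99 ± 0.40 with ethanol and 20.3 ± 3.02 with CPZ. With CPZ it rose (1.23, 1.53 after scaling). With ethanol the change was -0.00759 as deposited (adjusted p = 0.969), while it passed the test as a rise after median-ratio scaling (1.05). Leaving out single LPS libraries moved the deposited value over the range -0.18 to 0.16.

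Several peptidase genes fell far with ethanol. Scpep1, a serine carboxypeptidase gene, had the largest change of the set, at 84.7, 81.9 and 84.2 FPKM with LPS alone, 2.75, 2.49 and 2.04 with ethanol and 43.8, 57.3 and 66.8 with CPZ. The 3 ethanol libraries lay far below all others, and the CPZ libraries lay below LPS without overlap. The change with ethanol was -4.63 ± 0.15 (limma adjusted p = 1.76e-08, -3.61 after median-ratio scaling). With CPZ it was -0.59, and -0.23 after scaling, where it did not pass the test. CPZ exceeded ethanol by 4.04 ± 0.15 (3.38 after scaling). Lgmn, the asparaginyl endopeptidase legumain that activates cathepsins, read 42.9, 25.6 and 19 FPKM with LPS alone, 4.28, 2.81 and 2.62 with ethanol and 23.2, 23.7 and 28.2 with CPZ. Ethanol libraries again lay apart, whereas LPS and CPZ overlapped. The change was -2.78 ± 0.25 with ethanol (-1.74 after scaling) and -0.14 ± 0.25 with CPZ (limma adjusted p = 0.639), which turned to 0.20 after median-ratio scaling and to 0.17 without LPS replicate 1. In the direct comparison CPZ was higher by 2.63 ± 0.25 (adjusted p = 8.56e-06, 1.94 after scaling).

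Ctss was at 211, 239.7 and 194 FPKM with LPS alone, 30.9, 43.7 and 28.2 with ethanol and 91.9, 112 and 116 with CPZ, ordered LPS, CPZ, ethanol with no overlap. It fell with both treatments (-2.63 ± 0.17 and -1.0 ± 0.17, or -1.46 and -0.64 after scaling). The class II genes H2-Aa and H2-Ab1, whose invariant chain cathepsin S trims and which B cells also express, were lower in the same libraries (H2-Aa at 256 ± 60.5 FPKM with LPS alone, 20.3 ± 5.65 with ethanol and 75.3 ± 14.5 with CPZ). Ctsh, an aminopeptidase that also processes surfactant proteins, read 22.2, 17.9 and 20.2 FPKM with LPS alone, 5.92, 5.78 and 5.7 with ethanol and 15.7, 16.3 and 17.8 with CPZ. Ethanol libraries lay far below the others and CPZ libraries just below LPS. The change with ethanol was -1.63 ± 0.11 (-0.55 after scaling). With CPZ it was -0.26 ± 0.11 (limma adjusted p = 0.0601), 0.0836 after scaling, and it passed as a fall without LPS replicate 2 (-0.34). It also passed as a fall with globin genes left out (-0.64) and with a pseudocount of 5 (-0.21). Ctso, a little-studied cysteine protease gene, was low at 3.84, 5.08 and 6.43 FPKM with LPS alone, 0.319, 0.638 and 0.512 with ethanol and 2.45, 3.17 and 2.52 with CPZ. Its order was also LPS, CPZ, ethanol without overlap (-2.02 and -0.70, -1.34 and -0.40 after scaling), and its CPZ call was lost under quantile scaling (-0.34). Ctsc, the dipeptidyl peptidase that activates granule serine proteases of neutrophils, fell in both, at 35.3 ± 4.04 FPKM with LPS alone, 10.6 ± 0.796 with ethanol and 11 ± 1.84 with CPZ (-1.64 and -1.60, -0.51 and -1.24 after scaling). It did not differ past the threshold between CPZ and ethanol as deposited (0.0393), but was lower with CPZ after scaling (-0.73). Ctse, the endosomal aspartic protease cathepsin E, fell in both as well, at 4.98 ± 1.64 FPKM with LPS alone, 0.878 ± 0.118 with ethanol and 1.28 ± 0.282 with CPZ (-1.64 and -1.37, -0.87 and -1.03 after scaling).

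Ctsa moved in opposite directions. It encodes protective protein, a carboxypeptidase that holds beta-galactosidase and sialidase in a stable complex, and read 14, 11.8 and 12.4 FPKM with LPS alone, 3.88, 4.2 and 4.05 with ethanol and 22.6, 17.5 and 24.3 with CPZ. The 3 groups did not overlap. It fell with ethanol (-1.44 ± 0.13, limma adjusted p = 2.22e-06, -0.41 after median-ratio scaling) and rose with CPZ (0.70 ± 0.13, adjusted p = 0.000904, 1.02 after scaling). Its exons overlap those of Pltp on the other strand in GENCODE M21 by up to 311 bases. Pltp, a phospholipid transfer protein gene, averaged 21.9, 0.413 and 6.85 FPKM with LPS alone, ethanol and CPZ. Libraries were strand-specific, but whether counting used strand is not given in the sources used here, and the share of Pltp fragments in the Ctsa value was not tested.

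Of the 10 genes of glycosidases and Ids 4 rose and 6 fell with ethanol, and 5 rose and 5 fell with CPZ. The shares that fell were near those of all tested genes (64.6% and 48.4%, with 19.0% and 20.7% rising). Gla encodes alpha-galactosidase A, the enzyme missing in Fabry disease, and read 16.2, 16.5 and 13.8 FPKM with LPS alone, 36.7, 46.1 and 72.1 with ethanol and 144, 84.5 and 154 with CPZ. Each ethanol library exceeded LPS, each CPZ library exceeded ethanol, and the spread within the treated groups was wide. The changes were 1.62 ± 0.27 (limma adjusted p = 0.000171) and 2.92 ± 0.27 (adjusted p = 5.90e-06), or 2.76 and 3.24 after scaling. Between CPZ and ethanol it was 1.29 ± 0.27 as deposited, and 0.48 after median-ratio scaling, where it did not pass. Hexa, the alpha subunit of hexosaminidase that is lost in Tay-Sachs disease, was at 29.4, 29.5 and 29.2 FPKM with LPS alone, 39.9, 43.7 and 45.5 with ethanol and 117, 107 and 122 with CPZ. LPS libraries were nearly equal, and the groups rose in the order LPS, ethanol, CPZ (0.53 ± 0.11 and 1.93 ± 0.11, 1.69 and 2.28 after scaling). Its ethanol call was lost when globin genes were left out (0.13). Gm2a, the activator that presents GM2 ganglioside to this enzyme, went the other way, as given further on.

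Idua, the iduronidase of heparan and dermatan sulfate breakdown, was low but ordered alike, at 1.96, 2.95 and 3.02 FPKM with LPS alone, 5.47, 3.58 and 5.59 with ethanol and 10.9, 13.6 and 9.11 with CPZ. Its changes were 0.68 ± 0.19 and 1.74 ± 0.19 (1.61 and 1.95 after scaling), and the ethanol call was lost without globin genes (0.42). Neu1, the lysosomal sialidase, was highest with ethanol, at 12.6 ± 0.668 FPKM with LPS alone, 25 ± 2.61 with ethanol and 17 ± 1.91 with CPZ. It rose by 0.93 ± 0.12 with ethanol and by 0.40 ± 0.12 with CPZ, the latter call being lost on leaving out LPS+CPZ replicate 3 (0.31), under TPM scaling (0.36) and without globin genes (0.0501). The change from ethanol to CPZ was -0.53 ± 0.12 (limma adjusted p = 0.00225, -1.33 after scaling). Gaa, the acid alpha-glucosidase that degrades lysosomal glycogen, read 7.57, 8.04 and 7.45 FPKM with LPS alone, 3.81, 3.4 and 3.8 with ethanol and 11.6, 11.6 and 14.1 with CPZ. Groups did not overlap. With CPZ it rose (0.63 ± 0.11, adjusted p = 0.000584, 0.93 after scaling). With ethanol it fell as deposited (-0.90 ± 0.11, adjusted p = 2.19e-05), but not after median-ratio (0.11) or quantile scaling (-0.0119).

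The remaining glycosidase genes fell in both comparisons as deposited and were lowest with ethanol. Man2b1, the lysosomal alpha-mannosidase, was at 18, 18.1 and 18.2 FPKM with LPS alone, 1.95, 2.1 and 2.32 with ethanol and 5.75, 5.02 and 6.24 with CPZ. The LPS values were nearly equal, and every treated library lay below them (-2.62 ± 0.11 and -1.52 ± 0.11, -1.64 and -1.17 after scaling). Glb1, beta-galactosidase, whose partner genes are Ctsa and Neu1, read 7.11, 7.61 and 7.86 FPKM with LPS alone, 0.713, 0.889 and 0.622 with ethanol and 2.57, 3.55 and 3.75 with CPZ. It too was ordered LPS, CPZ, ethanol without overlap (-2.29 ± 0.13 and -1.0 ± 0.13, -1.51 and -0.67 after scaling). Tmppe, which shares exon sequence with Glb1 on the same strand, had means of 2.77, 0.406 and 0.957 FPKM. Gusb, beta-glucuronidase, changed by -1.58 and -0.74, and Ids, iduronate sulfatase, by -1.66 and -0.99. Manba was at 1.52 ± 0.207 FPKM with LPS alone, 0.267 ± 0.0724 with ethanol and 0.926 ± 0.0677 with CPZ, with changes of -0.99 and -0.38. After median-ratio scaling Gusb (-0.81 and -0.44) and Ids (-1.0 and -0.68) still passed, and Manba passed with ethanol (-0.53) but not with CPZ (-0.17). Under quantile scaling Manba passed in neither (-0.22 and -0.13).

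Of 6 lipid hydrolases and soluble cofactors 1 rose and 3 fell with ethanol, while 3 rose and 3 fell with CPZ, beside 19.0% and 64.6% of all tested genes with ethanol and 20.7% and 48.4% with CPZ. Lipa, the acid lipase that frees cholesterol and fatty acids from lipoproteins, was at 35.2, 27.8 and 18.9 FPKM with LPS alone, 32.6, 28.1 and 45.5 with ethanol and 237, 182 and 217 with CPZ. CPZ libraries lay far above the rest, whereas LPS and ethanol overlapped. It rose with CPZ by 2.95 ± 0.23 (limma adjusted p = 2.45e-06, 3.28 after scaling), a 7.77-fold difference of means. With ethanol it was 0.38 ± 0.23 (adjusted p = 0.152), which passed as a rise after median-ratio (1.53) and quantile scaling (0.63) and without LPS replicate 1 (0.58), and was -0.0311 without globin genes. Psap was likewise highest with CPZ, at 314, 276 and 248 FPKM with LPS alone, 376, 333 and 507 with ethanol and 1412, 1131 and 1358 with CPZ. The CPZ libraries exceeded all others (2.22 ± 0.18, 2.58 after scaling). Its smaller rise with ethanol (0.52 ± 0.18, 1.71 after scaling) was lost on leaving out LPS replicate 3 (0.44) or LPS+EtOH replicate 3 (0.35), under TPM scaling (0.41), without globin genes (0.0999) and without the filter on low values. Under quantile scaling the change of Psap with ethanol was -0.0035 and did not pass. In the direct comparison CPZ was higher for Lipa by 2.57 ± 0.23 and for Psap by 1.70 ± 0.18 (1.76 and 0.87 after scaling).

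Gm2a was at 25.9, 17.2 and 15.6 FPKM with LPS alone, 3.0, 1.98 and 2.34 with ethanol and 8.65, 8.56 and 8.83 with CPZ, ordered LPS, CPZ, ethanol without overlap (-2.56 ± 0.18 and -1.05 ± 0.18, -1.56 and -0.71 after scaling). Grn encodes progranulin, which binds prosaposin and cathepsin D on the way to the lysosome. It read 37.5, 37.5 and 37.3 FPKM with LPS alone, 7.16, 8.18 and 9.63 with ethanol and 19.4, 17.6 and 19.3 with CPZ. The LPS values were almost equal, and both treated groups lay below them (-2.05 ± 0.12, limma adjusted p = 1.13e-07, and -0.96 ± 0.12, adjusted p = 4.53e-05, or -0.93 and -0.61 after scaling). Grn thus fell where Ctsd rose. Npc2, the soluble cholesterol carrier that hands its cargo to NPC1, was at 36.8, 33.6 and 27.9 FPKM with LPS alone, 26.3, 25.8 and 25.1 with ethanol and 41.9, 41.5 and 50.5 with CPZ. As deposited it fell with ethanol (-0.33 ± 0.13, adjusted p = 0.035), but after median-ratio scaling it rose (0.82), and the fall was lost under quantile scaling (-0.0988), on leaving out LPS replicate 1 (-0.25) or 2 (-0.31), and on leaving out any single LPS+EtOH library (-0.35 to -0.31). Its rise with CPZ (0.44 ± 0.13, 0.78 after scaling) was lost without LPS+CPZ replicate 3 (0.35), under TPM scaling (0.38) and without globin genes (0.0727). Ppt1, the thioesterase that removes palmitate from proteins, had means of 8.36 ± 0.898 FPKM with LPS alone, 7.21 ± 1.0 with ethanol and 5.84 ± 0.737 with CPZ. With ethanol it was -0.19 (adjusted p = 0.206, 0.86 after scaling, where it passed as a rise). With globin genes left out it passed as a fall (-0.62). With CPZ it fell by 0.45 on the log2 scale, a call lost without LPS+CPZ replicate 3 (-0.36) and after median-ratio (-0.13) or quantile scaling (-0.13). Its exons overlap on the other strand those of Cap1, an abundant actin regulator gene, by up to 129 bases. Exons of Ctsb, Ctsz, Grn, Hexa, Idua, Lamp1, Npc1 and Scpep1 likewise overlap genes of the opposite strand, and those of Ctsd and Ctsl overlap other gene models on the same strand, so how fragments were divided there is uncertain.

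The membrane genes rose, apart from Scarb2. With ethanol 5 of 6 rose and none fell, beside 19.0% and 64.6% of all tested genes. With CPZ 5 rose and Scarb2 fell, beside 20.7% and 48.4%. The median change of the membrane genes was 1.24 and 1.72 (2.36 and 2.03 after median-ratio scaling). Medians of all tested genes were -0.82 and -0.33 as deposited. Lamp1, a major glycoprotein of the lysosomal membrane, was at 115, 108 and 91.9 FPKM with LPS alone, 229, 234 and 255 with ethanol and 474, 362 and 437 with CPZ. All groups were apart, in the order LPS, ethanol, CPZ (1.19 ± 0.14, limma adjusted p = 1.61e-05, and 2.0 ± 0.14, adjusted p = 1.24e-06, or 2.37 and 2.36 after scaling). Between CPZ and ethanol the change was 0.82 as deposited and -0.0118 after scaling. Lamp2, its relative with a role in chaperone-mediated autophagy, rose less, at 29.1 ± 2.77 FPKM with LPS alone, 49.5 ± 3.59 with ethanol and 47.2 ± 4.02 with CPZ (0.75 and 0.68, 1.91 and 1.03 after scaling). Its rise with CPZ did not pass with globin genes left out (0.32).

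Npc1, which exports cholesterol from the lysosome and is the partner of NPC2, read 10.2, 10.5 and 8.88 FPKM with LPS alone, 36.6, 31.8 and 38.2 with ethanol and 90.6, 79.4 and 77 with CPZ. The groups were far apart, with CPZ highest (1.75 ± 0.12 and 2.94 ± 0.12, 2.87 and 3.24 after scaling). CPZ exceeded ethanol by 1.19 ± 0.12 (limma adjusted p = 1.15e-05, 0.38 after scaling). Cd63, a tetraspanin of late endosomes and granules, was at 17.4, 15.1 and 9.68 FPKM with LPS alone, 53.7, 59.1 and 65 with ethanol and 87.9, 76.9 and 90.8 with CPZ, with both treated groups above LPS (2.03 ± 0.19 and 2.55 ± 0.19, 3.17 and 2.87 after scaling). A pseudogene listed as Cd63-ps read 5.59, 5.74 and 2.61 FPKM with LPS alone, 16.5, 22.1 and 25.1 with ethanol and 56.1, 31.6 and 44.1 with CPZ, so how fragments were divided between the copies is uncertain. The difference of Cd63 between CPZ and ethanol (0.52) lost its call on leaving out LPS+EtOH replicate 1 (0.45) or 2 (0.52), LPS+CPZ replicate 1 (0.49) or 3 (0.47) and under quantile scaling (0.52), and was -0.30 under median-ratio scaling. Ctns, the cystine exporter, rose from 4.45 ± 0.427 to 12.4 ± 0.50 and 13.8 ± 1.33 FPKM (1.30 and 1.44, 2.34 and 1.70 after scaling).

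Scarb2, which encodes LIMP-2, a sorting receptor of the lysosomal membrane, was the exception, at 9.2 ± 1.56 FPKM with LPS alone, 6.92 ± 1.08 with ethanol and 5.72 ± 0.94 with CPZ. With ethanol it was -0.36 as deposited (limma adjusted p = 0.0519) and passed as a rise after median-ratio scaling (0.69). Under quantile scaling it was 0.40 without passing. It passed as a fall without LPS replicate 3 (-0.45), LPS+EtOH replicate 3 (-0.44) or LPS+CPZ replicate 1 (-0.36), with TPM scaling (-0.50) and with globin genes left out (-0.80). With CPZ it fell as deposited (-0.60 ± 0.16), but not after median-ratio (-0.27) or quantile scaling (-0.30).

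**Figure D4:**
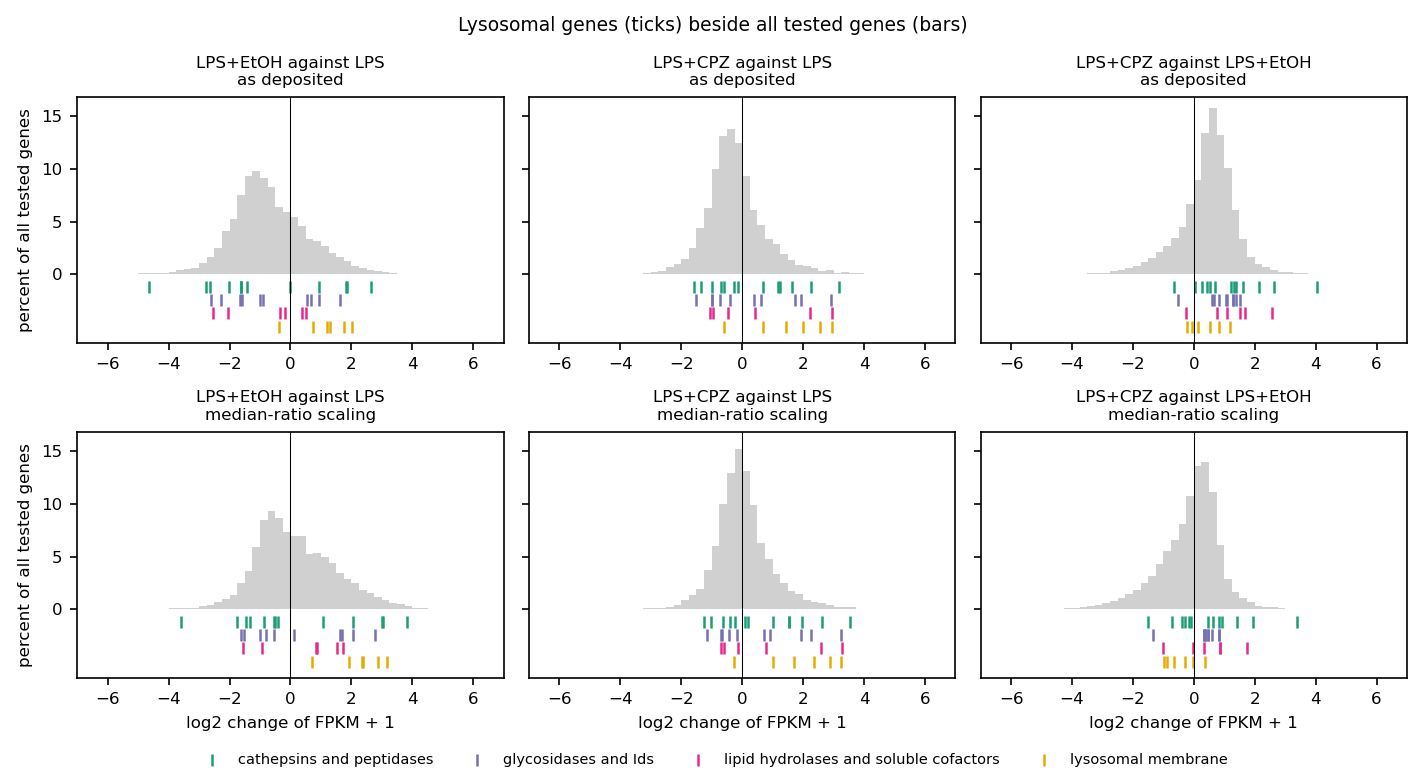
Percent of the 11721 tested genes per bin of log2 change (grey bars, bin width 0.25) with the tested lysosomal genes as ticks, coloured by class, as deposited (top) and after median-ratio scaling (bottom). The bars are centred below 0 in the first 2 comparisons and above 0 in the third as deposited and near 0 after scaling, while ticks of the peptidase and glycosidase classes lie on both sides and those of the membrane class mostly to the right against LPS.

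Beyond the 36 genes, 56 other lysosomal genes were listed and 47 could be tested. Of these, 3 passed the filter on low values through 1 group only, so their direction was partly set by it. With ethanol 15 rose and 26 fell as deposited, beside 19.0% and 64.6% of all tested genes, and 24 rose and 16 fell after median-ratio scaling, beside 39.9% and 40.1%. With CPZ the counts were 21 and 12, beside 20.7% and 48.4% of all tested genes, and 23 and 7 after scaling, beside 28.6% and 32.5%. Their median changes were -0.60 and 0.13 as deposited, against -0.82 and -0.33 for all tested genes. Against ethanol 35 were higher with CPZ and 3 lower, beside 61.4% and 15.2% of all tested genes. After scaling these counts were 19 and 12, beside 33.9% and 33.0%. Among the largest rises with ethanol were those of Cd68, the macrophage lysosomal glycoprotein macrosialin (55.5 ± 11.6 to 363 ± 34.2 FPKM, 2.70) and the peptide transporter gene Slc15a3 (1.46). Among the largest falls were those of Pld4 and Pld3, exonucleases of lysosomal nucleic acids (-3.51 and -2.50), the nucleoside transporter gene Slc29a3 (-2.54) and the aspartic protease gene Napsa (-2.18).

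With CPZ the largest rise was that of Gpnmb, a glycoprotein gene of lipid-laden macrophages, from 1.48 ± 0.684 to 17.9 ± 1.52 FPKM (2.96 ± 0.17, limma adjusted p = 3.09e-07), against 1.51 ± 0.0715 FPKM with ethanol. Cd68 (2.85) and the heparan sulfate enzyme gene Naglu (2.21) also rose. Among the largest falls were those of Pld4 (-2.02), Napsa (-1.36), Laptm5 (-0.73) and the ribonuclease gene Rnaset2a (-0.72). Between the treatments CPZ was higher for Gpnmb (2.91), Pld3 (2.30), Slc29a3 (1.88), Ostm1 (1.75) and Dnase2a (1.46). It was lower for the phosphatase gene Acp5 (-1.21), Slc15a3 (-1.11) and Cln3 (-0.60). After median-ratio scaling each of these genes still passed in the same direction in the comparison for which it is named here, with changes for Laptm5 of -0.37 and for Rnaset2a of -0.37.

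Of 15 genes that bring hydrolases to the lysosome, 3 rose and 7 fell with ethanol, and 5 rose and 7 fell with CPZ (9 and 5, and 6 and 3, after scaling). Of all tested genes 19.0% rose and 64.6% fell with ethanol and 20.7% rose and 48.4% fell with CPZ, as deposited. After scaling 39.9% rose and 40.1% fell with ethanol, and 28.6% rose and 32.5% fell with CPZ. Gnptab, the enzyme that starts the mannose 6-phosphate tag on hydrolases, was at 11.3 ± 0.639 FPKM with LPS alone, 1.48 ± 0.0207 with ethanol and 4.89 ± 1.11 with CPZ and fell in both (-2.31 and -1.08). It was named, like Vps26a of the retromer coat (25.1 ± 0.879 FPKM with LPS alone, 75.5 ± 3.75 with ethanol and 92.5 ± 8.13 with CPZ, a rise in both), after its values were seen. Of 5 transcription factor genes, Tfeb rose in both (4.73 ± 0.748 FPKM with LPS alone, 18.2 ± 1.19 with ethanol and 14.2 ± 0.482 with CPZ, 1.75 and 1.42, 2.81 and 1.68 after scaling). Tfe3 rose with ethanol (17 ± 1.41 to 39.9 ± 1.22 FPKM, 1.18) and was -0.0154 with CPZ (limma adjusted p = 0.906), or 0.32 after scaling. Mitf was 0.13 with ethanol (adjusted p = 0.511, and 1.18 after median-ratio scaling, where it passed) and rose with CPZ (0.50), a call lost on leaving out LPS replicate 2 (0.39) or 3 (0.42) or LPS+CPZ replicate 1 (0.41). Tfec, at 1.13 ± 0.211 FPKM with LPS alone, 1.16 ± 0.0478 with ethanol and 1.14 ± 0.287 with CPZ, did not pass in any comparison as deposited, but passed as a rise with ethanol after median-ratio scaling (0.67). Zkscan3, described as a repressor of these programs, fell in both (-1.86 and -0.51), its CPZ call being lost on leaving out LPS replicate 3 (-0.41) or LPS+CPZ replicate 1 (-0.41) and after median-ratio scaling (-0.18).

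Among genes of cathepsin inhibitors, Cstb, the cytosolic inhibitor stefin B, was at 142, 130.1 and 86.4 FPKM with LPS alone, 1303, 1416 and 1381 with ethanol and 1818, 1531 and 1889 with CPZ, with every treated library above LPS (3.54 ± 0.19, limma adjusted p = 7.82e-08, and 3.88 ± 0.19, adjusted p = 1.19e-07, or 4.72 and 4.24 after scaling). Cst3, the secreted cystatin C, fell in both as deposited, at 67.4 ± 8.84 FPKM with LPS alone, 25.6 ± 5.39 with ethanol and 40.7 ± 8.63 with CPZ (-1.38 and -0.73, or -0.21 and -0.37 after scaling, with adjusted p = 0.328 and 0.124). Of 11 inhibitor genes 7 rose and 4 fell with ethanol, and 4 rose and 3 fell with CPZ, beside rises of 19.0% and 20.7% and falls of 64.6% and 48.4% among all tested genes. The rises with ethanol included the neighbouring stefin A genes, which neutrophils express strongly, for example Stfa2l1 at 83.4 ± 21.9 FPKM with LPS alone, 476 ± 13.2 with ethanol and 54 ± 9.35 with CPZ. These genes are near-identical copies, so their single values are uncertain. The neutrophil markers were higher in the same libraries, and the part of such cells in the stefin A values was not tested.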

How the data were processed

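Per the labels' protocols, strand-specific TruSeq libraries of pooled RNA were sequenced on an Illumina instrument. The authors deposited 1 table of FPKM per gene. STAR, StringTie and FastQC (0.11.2) are named in the submitters' processing notes, with the human build hg38. Yet the gene IDs are mouse ones, 55154 of 55335 being in GENCODE M21, and no coordinates of the authors' build are given. All 9 value columns were matched to samples by name, and no 2 libraries held identical values.

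The 11721 genes that reached 1 FPKM in 3 or more libraries were compared as log2(FPKM + 1) with limma 3.58.1 in R 4.3.3 (eBayes with trend, group as the only term, all 9 libraries, two-sided), with Benjamini-Hochberg adjustment over all of them. A pseudocount of 1 understates the change of low genes. Changes after median-ratio scaling used size factors from the same genes. The test was checked on simulated data. Members and lists, including those of other lysosomal genes and cell types, were chosen with earlier results of these data known. Values in every library are given for the 10 members with the largest change per comparison and for those that moved in opposite directions. Other lysosomal genes are the 5 largest rises and falls among those whose higher group averaged 5 FPKM or more, and some of them are not reported here. The alternatives tried were pseudocounts of 0.1 and 5, no filter and 5 FPKM, 4 scalings, other eBayes settings, fewer groups, a replicate block, a log2 change of at least 1 and leaving out each library. Promoter sequences are from RefSeq (GRCm38.p6), and start sites and exon overlaps were checked in GENCODE M21. Python 3.11.15, pandas 2.3.3, numpy 2.4.6 and matplotlib 3.10.9 were used.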

Additional observations from a re-analysis of the deposited data

How the results depend on the processing

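In LPS+EtOH against LPS, 14 of the 35 tested genes of the set rose and 17 fell. At a log2 change of at least 1 the rises were 8. The 15 rises of other lysosomal genes became 24 under median-ratio scaling, 23 under quantile scaling and 8 at a log2 change of 1, and the 26 falls became 16, 13 and 14, and 14 with the 5 FPKM filter. In LPS+CPZ against LPS the 14 falls of the set became 9 with the 5 FPKM filter and 6 at a log2 change of 1. The 21 rises of other lysosomal genes became 13 at that limit, and their 12 falls became 7 with the 5 FPKM filter, 7 under median-ratio scaling, 20 without globin genes and 2 at a log2 change of 1. In LPS+CPZ against LPS+EtOH, 27 genes of the set were higher and 2 lower, turning to 17 and 7 under median-ratio scaling, and 0 were lower by limma at a log2 change of 1, since both called genes changed by less. Other lysosomal genes went from 35 higher to 22 with the 5 FPKM filter, 19 under median-ratio scaling, 23 under quantile scaling and 16 at a log2 change of 1, and from 3 lower to 12 and 6 under median-ratio and quantile scaling. Among all 11721 tested genes 1179, 1142 and 2816 rose at a log2 change of 1, in the same order of comparisons. Falls at that limit were 5088, 2013 and 849. Under quantile scaling 4160, 3441 and 3844 rose and 4633, 4069 and 3144 fell. With the 5 FPKM filter 1575, 1645 and 3764 of 6419 rose and 3770, 3096 and 1229 fell. Without globin genes 1677 of 11717 rose and 7304 fell in LPS+CPZ against LPS. The stricter filter tests fewer genes, and otherwise the cause was not tested.

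Leaving out each library in turn gave 13 to 15 of the set higher and 16 to 18 lower in LPS+EtOH against LPS, 17 to 19 of the set higher and 13 to 15 lower in LPS+CPZ against LPS, 25 to 27 of the set higher and 2 to 3 lower in LPS+CPZ against LPS+EtOH. For other lysosomal genes it gave 13 to 16 higher and 25 to 27 lower, 19 to 21 higher and 11 to 13 lower, 30 to 34 higher and 3 to 4 lower, in the same order. Among all 11721 tested genes the higher ones were 2084 to 2246, 2269 to 2438 and 6638 to 7244. The lower ones were 7350 to 7593, 5163 to 5695 and 1621 to 1810.

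Log2 changes whose sign differed from the main value were the following. With median-ratio scaling they were, in LPS+EtOH against LPS, Ctsl 1.05, Gaa 0.11, Ppt1 0.86, Npc2 0.82, Scarb2 0.69, and in LPS+CPZ against LPS, Ctsh 0.0836, Lgmn 0.20, Tfe3 0.32, and in LPS+CPZ against LPS+EtOH, Ctsb -0.39, Ctsc -0.73, Ctsd -0.29, Ctse -0.16, Tpp1 -0.0907, Npc2 -0.0403, Lamp1 -0.0118, Cd63 -0.30, Ctns -0.64, Mitf -0.38, Cst3 -0.16, Cstb -0.48. With quantile scaling they were, in LPS+EtOH against LPS, Ctsl 0.75, Ppt1 0.59, Psap -0.0035, Scarb2 0.40, and in LPS+CPZ against LPS, Tfe3 0.22, and in LPS+CPZ against LPS+EtOH, Ctsc -0.30, Ctse -0.33, Ctns -0.16, Mitf -0.035. With globin genes left out they were, in LPS+EtOH against LPS, Lipa -0.0311, Mitf -0.27, Tfec -0.30, and in LPS+CPZ against LPS, Tfec -0.30, and in LPS+CPZ against LPS+EtOH, Tfec 0.0027. With TPM scaling they were, in LPS+EtOH against LPS, Tfec -0.0545, and in LPS+CPZ against LPS, Tfec -0.0504, and in LPS+CPZ against LPS+EtOH, Tfec 0.0041. With a pseudocount of 0.1 they were, in LPS+CPZ against LPS, Tfec -0.0044. Leaving out single libraries turned the sign of further changes, none of them called, whose ranges were, in LPS+EtOH against LPS, Ctsl -0.18 to 0.16, Tfec -0.0286 to 0.10, and in LPS+CPZ against LPS, Lgmn -0.40 to 0.17, Tfe3 -0.0661 to 0.046, Tfec -0.10 to 0.0823, and in LPS+CPZ against LPS+EtOH, Ctsc -0.0624 to 0.16, Tfec -0.12 to 0.0614.

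Over all alternatives 2088 changes of single genes of the set kept direction and side of the threshold, 53 lost their call, 20 gained one and 29 turned. The labels do not say that a replicate number marks a shared source, so the libraries were not taken as paired. Same-numbered libraries of different groups deviated together above a correlation of 0.1 in 3 of 9 pairs (-0.00645 to 0.26), and a library correlated best with its own number in 10 of 18 cases. With the replicate block the set had 14 genes higher and 18 lower in LPS+EtOH against LPS, beside 2264 and 7607 of all 11721 tested genes. In LPS+CPZ against LPS 19 were higher and 14 lower, beside 2459 and 5697. In LPS+CPZ against LPS+EtOH 27 were higher and 2 lower, beside 7255 and 1831. Scarb2 in LPS+EtOH against LPS gained a call as a fall with the block (-0.36), and no other gene of the set changed its call. The depth per library is unknown, which limits genes of a few FPKM, such as Ctse, Ctso, Gusb, Ids and Manba.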
